A study of Homo sapiens with 6 samples.

Results

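The genes for the subunits, activators, inhibitor and assembly factors of the proteasome were described in 8505C cells, an established line of anaplastic thyroid cancer (ATC), after knockdown of NUF2. They were chosen as the protein-coding genes with a symbol made of PSM, a letter from A to G and a number, with a mean of at least 1 FPKM (fragments scaled by transcript length and by library size) over the 6 libraries. This rule found 46 of the 32985 genes in the deposited table. No gene that fits the symbol and type was lost to the minimum, so all 46 were measured and tested, and the rule used no difference between the groups. Genes of the complex with other symbols, such as ADRM1, SEM1 and POMP, were placed in separate lists of related genes.

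The RNA came from cells with 24 h in the sample titles, which do not name the event it is counted from. There were 3 libraries of cells given control siRNA (siCtrl, genotype WT in the labels). Another 3 were of cells given an siRNA against NUF2 (siNUF2, labelled as knockdown). NUF2 is a subunit of the kinetochore complex that ties chromosomes to spindle microtubules. Both groups are the same cell line in the same medium, and 1 siRNA sequence stands behind the siNUF2 group, so effects of the NUF2 loss and of that sequence cannot be told apart. Poly(A) RNA was sequenced, and whether libraries with the same replicate number share a culture or a day is not stated, so p-values measure the spread between these libraries, which may be technical.

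The proteasome is the cell's main machine for the destruction of proteins marked with ubiquitin. Its barrel-shaped core is made of outer alpha rings and inner beta rings that hold the proteolytic sites, and a regulatory particle with a base of ATPases and a lid recognizes, unfolds and feeds in the substrates. In cells that meet interferon, alternative catalytic beta subunits replace the constitutive ones and form the immunoproteasome, and dedicated chaperones assemble the rings and the base. The transcription factor NFE2L1 is known to raise many of these genes together when proteasome activity is too low. It binds antioxidant response elements in their promoters.

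The siRNA target is shown because its seed is searched for in the proteasome transcripts further on. It lies in NUF2 at chr1:163336814-163336834 (GRCh38, plus strand), in the coding part of exon 6 of 14. The capitals mark the letters that pair with positions 2 to 8 of the antisense strand.
NUF2 target: gccgtgaaacgtaTATGGAAt

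PSMC3 is the member that passed the test of the knockdown, so its promoter is shown as well. It covers 250 bases before and 50 after the annotated start (RefSeq, GRCh38.p14, chr11:47426390-47426689, minus strand, written along the gene). The capitals mark a CCAAT box, which starts 114 bases before the annotated start.
PSMC3 promoter: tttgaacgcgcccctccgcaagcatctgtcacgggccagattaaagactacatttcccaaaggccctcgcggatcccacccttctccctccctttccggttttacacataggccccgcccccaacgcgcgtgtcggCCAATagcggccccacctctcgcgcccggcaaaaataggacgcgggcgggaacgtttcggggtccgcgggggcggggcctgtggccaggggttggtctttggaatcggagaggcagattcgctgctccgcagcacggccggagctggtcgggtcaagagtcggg

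Each library held between 61257859 and 69755291 counts on genes, and the 46 members had between 323 and 50083 counts in a library. NUF2 itself was at 13.9 ± 1.41 FPKM (SD, n = 3) in siCtrl and 1.71 ± 0.290 FPKM (SD, n = 3) in siNUF2 cells. The difference was a log2 fold change of -2.99 (SE, the standard error, 0.17, edgeR adjusted p = 5.1e-04). Of the thyroid markers, NKX2-1 was at 18.6 FPKM and PAX8 at 0.575 FPKM in siCtrl cells, whereas TG, SLC5A5 and FOXE1 were under 0.02 FPKM in every group. KRT8, KRT18 and VIM were abundant. Of the other epithelial markers, KRT19 was at 8.1, EPCAM at 0.105 and CDH1 at 0 FPKM in siCtrl cells. Replicate 1 of siCtrl stood apart in leukocyte markers, with 1039 counts of LYZ and 389 of PTPRC. Replicate 1 of siNUF2 had 58 and 106, and the other 4 libraries had 0 of LYZ and at most 14 of PTPRC. Some markers of other cell types also differed by replicate number. COL1A2, a fibroblast marker, had 0 counts in both libraries numbered 1 and 550 to 928 in the others. CDH5, an endothelial marker, had 921 and 1333 counts in the libraries numbered 2 and 235 to 374 in the others. The part of other cells in the libraries was not tested.

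Of the 46 proteasome genes, PSMC3 was called higher in siNUF2 cells and 0 were called lower, at an adjusted p under 0.05. The counts were tested by quasi-likelihood in edgeR, and p-values were adjusted after Benjamini and Hochberg over 11725 genes. Over all genes tested, 3.99% were called in either direction and 1.53% were called higher, so the count of 1 in 46 was near the background. The log2 fold change was above 0 in 34 of 46 members (73.9%), against 51.1% of all genes, and its median was 0.0625, against 0.00694 over all genes. Among genes with a mean of at least 10 FPKM, 57.6% were above 0 with a median of 0.0351, and among the 40 members at that level 75% with a median of 0.0625. These shifts were small: 41 members (89.1%) lay within 0.2 of 0 on the log2 scale, against 56.9% of all genes. At a mean of at least 10 FPKM, 92.5% of the 40 members did, against 66% of all genes at that level. In bulk RNA of this kind, fewer cells of a type and less RNA per cell cannot be told apart.

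How closely a difference was bounded is given by its 95% interval. For 42 of the 46 members (91.3%) the interval lay between 1.5-fold lower and 1.5-fold higher, against 54.2% of all genes. The members are abundant, and 40 of them had a mean of at least 10 FPKM. Among all genes at that level, 74.5% had such an interval, and 38 of the 40 abundant members (95%) did. The median standard error of the log2 fold change was 0.104 in the members and 0.149 in all genes. The intervals of PSMC3, PSMB9, PSMB10 and PSME2 reached outside the 1.5-fold bounds. That of PSMC3 was narrow (SE 0.082) and lay above 0.

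**Figure D1:**
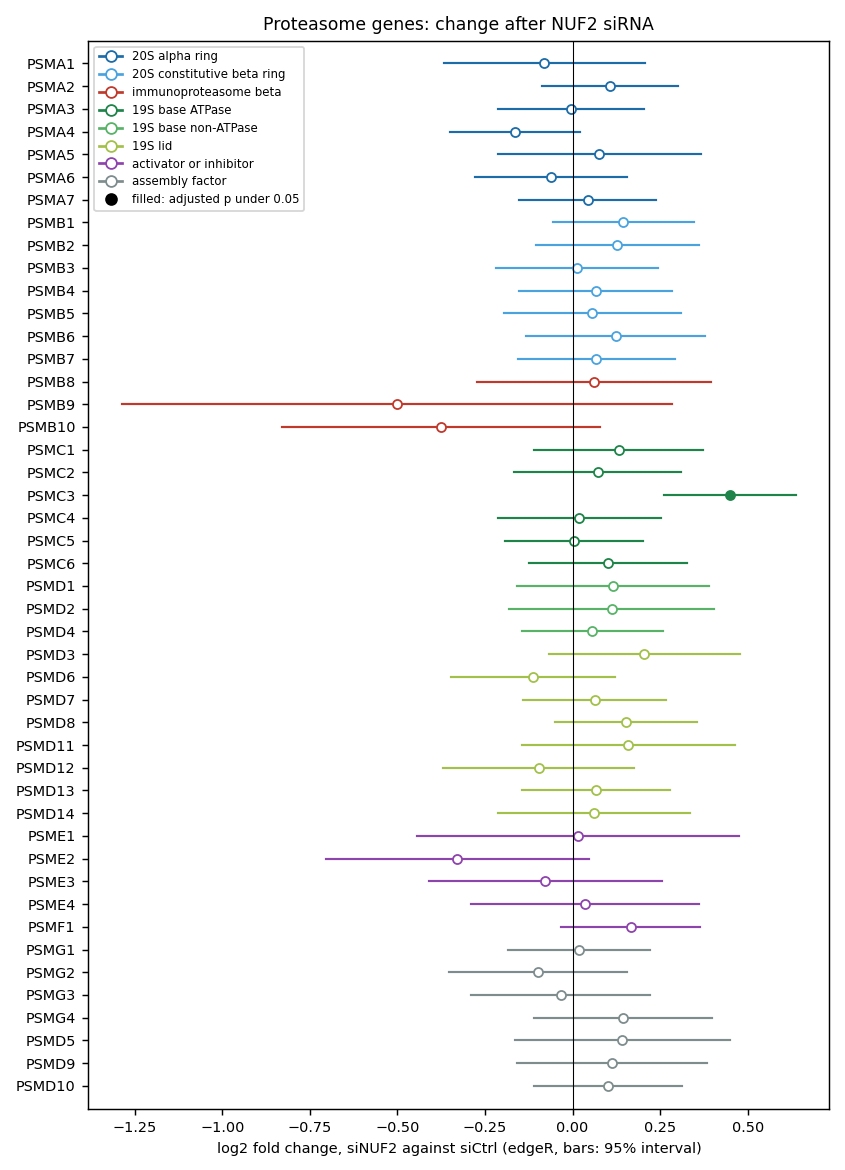
Log2 fold change of each of the 46 proteasome genes in siNUF2 against siCtrl cells, with its 95% interval from edgeR (3 libraries a group) and colours for the classes. The filled point, PSMC3 at 0.45, is the member called at an adjusted p under 0.05, and the widest interval belongs to PSMB9.

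By summed level, the constitutive core subunits were the most abundant. The median siCtrl level of a gene was 33.5 FPKM in the alpha ring and 91.6 FPKM in the constitutive beta ring. In the base ATPases it was 48.2 FPKM. Summed over the 7 alpha subunits, which build the outer rings and the gate of the core, the level was 394.5 ± 16.6 FPKM in siCtrl and 388.8 ± 17.7 FPKM in siNUF2 cells (SD, n = 3). The 7 constitutive beta subunits summed to 626.5 ± 38.9 and 652.9 ± 12.8 FPKM (SD, n = 3). Within the 14 genes, whose products stand in equal number in the core, the siCtrl level ran from 22.8 FPKM of PSMA5 to 160.6 FPKM of PSMA7, a 7.05-fold range.

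In the alpha ring, 3 members had a log2 fold change above 0 and 4 below, with a median of -0.00497, and edgeR's adjusted p was at least 0.342 for each. The lowest was PSMA4, at 28.6, 28.3 and 28.3 FPKM in the siCtrl libraries and 25.2, 24.1 and 25.6 FPKM in the siNUF2 libraries. The groups did not overlap, and the siCtrl libraries of PSMA4 were nearly level with each other. Its log2 fold change of -0.16 (SE 0.081) had an edgeR adjusted p of 0.342, so it was not called. The highest was PSMA2, at 28.3, 29.4 and 27.9 FPKM in siCtrl and 29.7, 31.3 and 29.9 FPKM in siNUF2 libraries. These groups did not overlap either, by a narrow gap, with a log2 fold change of 0.11.

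All 7 constitutive beta subunits had a log2 fold change above 0, between 0.01 of PSMB3 and 0.14 of PSMB1, and 0 were called. PSMB1, a structural beta subunit, was at 94.5, 95.6 and 96.1 FPKM in siCtrl and 99.5, 110 and 102 FPKM in siNUF2 libraries. PSMB3, also structural, was at 92.4, 82.6 and 99.8 FPKM against 89.7, 89.7 and 94.0 FPKM. PSMB1 did not overlap between groups (edgeR adjusted p = 0.449), while the siNUF2 values of PSMB3 lay within those of siCtrl.

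The beta subunits with a proteolytic site showed the same small differences. PSMB5, which carries the chymotrypsin-like site and is the main target of bortezomib, was at 111, 87.5 and 101 FPKM in siCtrl and 109, 97.9 and 101 FPKM in siNUF2 libraries. PSMB6, with the caspase-like site, was at 64.0, 68.7 and 79.0 FPKM against 70.8, 76.3 and 80.4 FPKM. PSMB7, with the trypsin-like site, was at 165, 145.6 and 167.5 FPKM against 173, 152 and 169 FPKM. The libraries of the groups overlapped for each of the 3 genes. Their log2 fold changes were 0.06, 0.12 and 0.07, with 95% intervals from 0.874-fold to 1.24-fold, from 0.912-fold to 1.30-fold and from 0.897-fold to 1.22-fold.

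**Figure D2:**
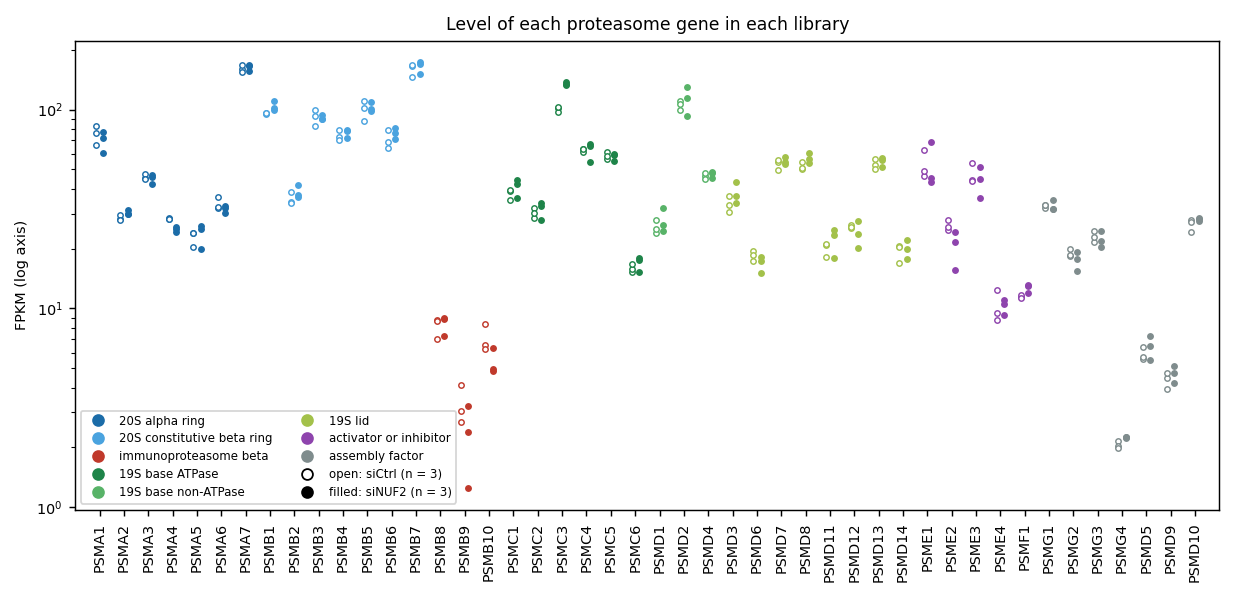
FPKM of each proteasome gene in each library on a log axis, by class, with open points for the 3 siCtrl and filled points for the 3 siNUF2 libraries. The immunoproteasome subunits PSMB8, PSMB9 and PSMB10 lie under 10 FPKM, below all other core subunits, and PSMC3 has the widest gap between its siNUF2 and siCtrl points.

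The immunoproteasome subunits were expressed at a low level, and 0 of the 3 were called. PSMB8, the counterpart of PSMB5, was at 8.76, 6.98 and 8.67 FPKM in siCtrl and 7.29, 8.81 and 9.0 FPKM in siNUF2 libraries. PSMB9, the counterpart of PSMB6, was at 2.70, 3.05 and 4.12 FPKM against 1.25, 2.38 and 3.22 FPKM. PSMB10, the counterpart of PSMB7, was at 8.38, 6.57 and 6.26 FPKM against 4.85, 6.34 and 4.94 FPKM. PSMB9 and PSMB10 were lower in siNUF2 in each of the 3 same-numbered pairs, yet the groups overlapped. The log2 fold change was -0.50 (SE 0.34, edgeR adjusted p = 0.51) for PSMB9 and -0.37 (SE 0.20, edgeR adjusted p = 0.379) for PSMB10. For PSMB8 it was 0.06. The 95% intervals of PSMB9 and PSMB10 reached down to 0.410-fold and 0.563-fold, so a fall of more than 1.5-fold was not excluded for these 2 genes at this spread.

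As a share of each catalytic pair, PSMB8 made up 7.32, 7.39 and 7.87% of PSMB5 and PSMB8 together in siCtrl and 6.29, 8.26 and 8.17% in siNUF2 libraries. PSMB9 was 4.04, 4.25 and 4.95% of its pair in siCtrl and 1.73, 3.03 and 3.85% in siNUF2 libraries. PSMB10 was 4.84, 4.32 and 3.60% against 2.72, 4.01 and 2.84%. The shares of the PSMB9 pair did not overlap between groups, those of the other pairs did, and the constitutive subunit was 12.3 to 22.5 times its counterpart in siCtrl cells. These subunits are abundant in leukocytes, so the leukocyte markers are given beside them: the summed leukocyte list was at 14.9, 3.48 and 6.82 FPKM in siCtrl and 5.58, 4.74 and 6.29 FPKM in siNUF2 libraries, and CD3E was at 0 in all but the libraries numbered 1. Outside siCtrl replicate 1 the sum was mostly CD68. That gene was at 6.77, 3.48 and 6.82 FPKM in siCtrl and 4.96, 4.72 and 6.29 FPKM in siNUF2 libraries. LYZ was at 7.48 FPKM in siCtrl replicate 1 and 0.434 FPKM in siNUF2 replicate 1. Without siCtrl replicate 1 the log2 fold change was 0.12 for PSMB8, -0.63 for PSMB9 and -0.24 for PSMB10. Without both libraries numbered 1 it was 0.21, -0.33 and -0.16, with 0 calls in all 11725 genes in that fit of 4 libraries by edgeR, against 1223 at an unadjusted p under 0.05. The part of other cells in these differences was not tested. PSMB8 and PSMB9 also overlap each other on the genome, and PSMB9 overlaps TAP1. The strand setting of the counting is not given in the sources used here.

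The ATPases of the base are the motor that unfolds substrates. All 6 had a log2 fold change above 0, with a median of 0.0866. PSMC3 (ENSG00000165916, chromosome 11 from 47418769 to 47426442, minus strand), also called Rpt5, was at 101, 96.9 and 104 FPKM in the siCtrl libraries and 135, 133 and 138 FPKM in the siNUF2 libraries. The lowest siNUF2 library lay well above the highest siCtrl library. The mean rose from 100.6 ± 3.39 to 135.4 ± 2.42 FPKM (SD, n = 3), to 134.6% of the siCtrl mean, with a log2 fold change of 0.45 (SE 0.082, edgeR adjusted p = 0.0251). The 95% interval ran from 1.2-fold to 1.56-fold, and the fit with the replicate number as a block gave an adjusted p of 0.00441.

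The size of the PSMC3 difference varied little, but its call did not hold at fewer libraries. When each of the 6 libraries was left out, PSMC3 had a log2 fold change between 0.42 and 0.47 and edgeR's adjusted p between 0.0578 and 0.0945, so each library was needed for the call. No other gene with a mean of at least 1 FPKM overlaps PSMC3 in the annotation of the file.

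The other 5 ATPases did not follow PSMC3. Their summed level was 205.3 ± 7.15 FPKM in siCtrl and 209.8 ± 14.5 FPKM in siNUF2 cells (SD, n = 3), or 102.2% of siCtrl. The largest log2 fold change among them was 0.13, of PSMC1, and edgeR's adjusted p was at least 0.587 for each. The lowest of the class was PSMC5, at 60.9, 56.6 and 58.7 FPKM in siCtrl and 60.0, 59.2 and 55.0 FPKM in siNUF2 libraries. PSMC5 overlaps FTSJ3, which was at 46.7 FPKM, so its counts may hold reads of that gene.

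The 3 other subunits of the base also had values above 0, and 0 were called. PSMD1, the largest scaffold of the base, was at 28.0, 24.0 and 25.1 FPKM in siCtrl and 31.9, 24.4 and 26.2 FPKM in siNUF2 libraries. PSMD4, a ubiquitin receptor, was at 46.2, 44.5 and 47.8 FPKM against 45.2, 48.6 and 48.1 FPKM. The groups overlapped in both genes, with log2 fold changes of 0.12 and 0.06. PSMD2, the other scaffold, had the highest counts of all members and a log2 fold change of 0.11.

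In the lid, which holds the deubiquitinase PSMD14, 6 of 8 members had a log2 fold change above 0 and 0 were called. PSMD3, a structural subunit, had the highest value of the class, with 36.7, 30.5 and 33.0 FPKM in siCtrl and 43.5, 34.0 and 36.7 FPKM in siNUF2 libraries. It was higher in siNUF2 in each same-numbered pair, while replicate 1 was the highest of both groups and the groups overlapped. Its log2 fold change was 0.21 (SE 0.12, edgeR adjusted p = 0.423, and 0.0801 with the block). PSMD6 had the lowest value, with 19.5, 17.3 and 18.5 FPKM against 17.3, 15.1 and 18.1 FPKM and a log2 fold change of -0.11. PSMD14 itself had a log2 fold change of 0.06.

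**Figure D3:**
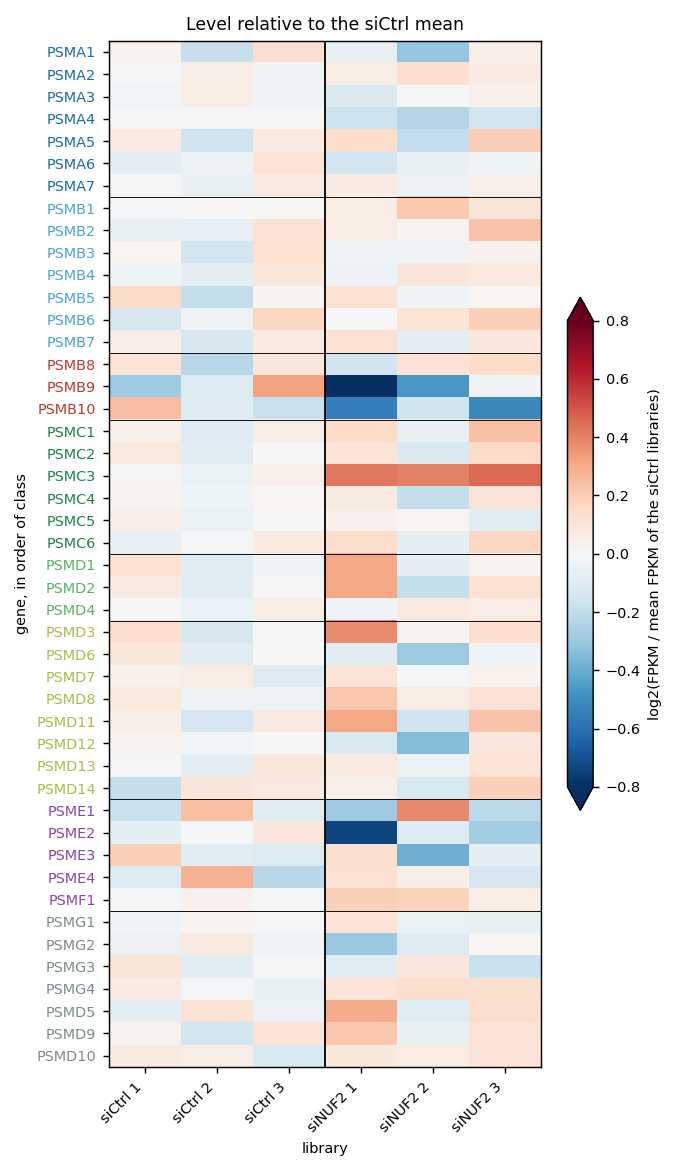
Log2 ratio of each library's FPKM to the mean of the siCtrl libraries for the 46 proteasome genes, in order of class, with siCtrl libraries left and siNUF2 libraries right of the line. PSMC3 is the row raised most in the siNUF2 libraries, and replicate 2 is the lowest of its group, in both groups, in 21 rows.

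Many members shared the order of the libraries within a group. Replicate 2 had the lowest FPKM of its group in both siCtrl and siNUF2 cells for 21 of 46 members (45.7%), against 18.8% of all genes tested. It did so for 4 of 7 alpha, 4 of 7 constitutive beta, 4 of 6 ATPase, 2 of 3 other base and 6 of 8 lid genes, but for 0 of 3 immunoproteasome genes, 0 of 5 activator or inhibitor genes and 1 of 7 assembly factors. It was the highest in both groups for 2 members, PSMA2 and PSME1, or 4.35%, against 18.6% of all genes. Summed over all members, the level was 2087, 1980 and 2110 FPKM in siCtrl and 2169, 2049 and 2175 FPKM in siNUF2 libraries, so replicate 2 was the lowest in each group. What the replicate numbers share was not given, and its part was not tested.

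The activators that replace the regulatory particle at the ends of the core, and the inhibitor PSMF1, were described next. PSME1, a subunit of the interferon-inducible activator, was at 46.5, 62.3 and 49.1 FPKM in siCtrl and 43.1, 68.8 and 45.4 FPKM in siNUF2 libraries. PSME2, its partner, was at 24.8, 25.8 and 27.8 FPKM against 15.7, 24.3 and 21.5 FPKM. The groups overlapped for PSME1, which was high in replicate 2 of each, and did not overlap for PSME2. The log2 fold change was 0.02 for PSME1 and -0.33 (SE 0.16, edgeR adjusted p = 0.344) for PSME2. With the block, edgeR's adjusted p was 0.966 for PSME1 and 0.0823 for PSME2. The value of PSME2 was -0.37 without siCtrl replicate 1 and -0.16 without siNUF2 replicate 1, in which it was lowest, and -0.20 without both. PSME2 overlaps RNF31 and AL136295 on the opposite strand.

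PSME3, the nuclear activator, was at 53.9, 44 and 43.7 FPKM in siCtrl and 51.5, 36.0 and 44.9 FPKM in siNUF2 libraries. PSME4, a large activator found at damaged chromatin and in germ cells, was at 9.46, 12.3 and 8.74 FPKM against 11.1, 10.5 and 9.28 FPKM. PSMF1 was at 11.4, 11.7 and 11.3 FPKM against 13.1, 13.0 and 12.0 FPKM. Only PSMF1 of these 3 did not overlap between groups, with a log2 fold change of 0.17 (SE 0.086, edgeR adjusted p = 0.371). PSME3 and PSME4 had log2 fold changes of -0.08 and 0.04.

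By summed level, the assembly factors were the least abundant class after the immunoproteasome. Their sum was 113.6 ± 2.00 FPKM in siCtrl and 113.7 ± 1.17 FPKM in siNUF2 cells (SD, n = 3), and 0 of 7 were called. PSMG4, a chaperone of the alpha ring, was at 2.16, 2.04 and 1.98 FPKM in siCtrl and 2.22, 2.26 and 2.25 FPKM in siNUF2 libraries, without overlap and with a log2 fold change of 0.14 (edgeR adjusted p = 0.572). On the genome, PSMG4 overlaps TUBB2B on the opposite strand, which was at 3.96 FPKM. The counts of PSMG4 may therefore hold reads of TUBB2B. PSMG2, the partner of PSMG1, was at 18.4, 19.9 and 18.6 FPKM against 15.4, 17.7 and 19.2 FPKM, with a log2 fold change of -0.10. The base chaperones PSMD5, PSMD9 and PSMD10 had log2 fold changes of 0.14, 0.11 and 0.10.

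Over all classes, 7 of 46 members (15.2%) had FPKM values that did not overlap between groups. These were PSMA2, PSMB1, PSMC3, PSMF1 and PSMG4, which were higher, and PSMA4 and PSME2, which were lower. Over all genes tested, 23.9% did not overlap, so the members were below the background. In same-numbered pairs, 14 members (30.4%) were higher in siNUF2 in all 3 pairs and 7 (15.2%) lower in all 3, against 23.6% and 27.8% of all genes. With the replicate block, edgeR called 14.5% of all genes and still 1 of the 46 members, PSMC3. At an unadjusted p under 0.05 there were 7 members with the block and 1 without it. Of all 11725 genes, 3505 and 2129 were at that level.

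The related genes were examined in 5 lists chosen by function, with 63 genes tested. edgeR called 3 of them, 1 higher and 2 lower, and 12 with the replicate block, 4 higher and 8 lower. Over all genes these shares were 3.99% and 14.5%. Among the 14 subunits and partners with other symbols, 0 were called in the fit without the block and 4 with it. The 4 were UCHL5, PAAF1, UBE3A and AKIRIN1. UCHL5, a deubiquitinase of the regulatory particle, was at 9.41, 9.95 and 9.40 FPKM in siCtrl and 6.24, 7.09 and 7.49 FPKM in siNUF2 libraries. The groups did not overlap, and its log2 fold change was -0.44 (edgeR adjusted p = 0.0587, and 0.0125 with the block). The subunits ADRM1 and SEM1 and the core chaperone POMP had log2 fold changes of -0.07, 0.18 and -0.09.

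The other 3 of this list that the block brought under the threshold also had groups without overlap, as did 23.9% of all genes tested. PAAF1, an inhibitor of the joining of core and regulatory particle, was at 3.81, 4.87 and 4.34 FPKM in siCtrl and 2.51, 3.52 and 3.46 FPKM in siNUF2 libraries. UBE3A, a ubiquitin ligase that binds the proteasome, was at 2.72, 2.96 and 3.02 FPKM against 3.94, 3.29 and 4.16 FPKM. AKIRIN1 was at 16.4, 17 and 15.5 FPKM against 27.7, 19.2 and 25.2 FPKM. With the block, edgeR's adjusted p was 0.0286 for PAAF1, 0.0244 for UBE3A and 0.0203 for AKIRIN1, and without it 0.228, 0.0957 and 0.0629. AKIRIN2, the paralog of AKIRIN1 that is known for the nuclear import of proteasomes, had a log2 fold change of -0.07.

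In the list of the NFE2L1 axis, 1 of 14 genes tested rose and 0 fell. NFE2L1 was at 24.9, 16.1 and 20.9 FPKM in siCtrl and 40.2, 31.6 and 32.3 FPKM in siNUF2 libraries. Every siNUF2 library lay above every siCtrl library, and the mean rose from 20.6 ± 4.40 to 34.7 ± 4.81 FPKM (SD, n = 3). The log2 fold change was 0.77 (SE 0.17, edgeR adjusted p = 0.0469). The call was lost with each of the 6 libraries left out, at an edgeR adjusted p between 0.052 and 0.163.

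The genes that process or control NFE2L1 protein were not called. DDI2, the protease that cleaves it, had a log2 fold change of -0.16, NGLY1, which removes its sugars, of -0.20, and VCP, which extracts it from the membrane, of 0.15. NFE2L2, the related factor of the antioxidant response, was at 15.8, 19.7 and 14 FPKM in siCtrl and 12.7, 12.9 and 11.6 FPKM in siNUF2 libraries, with an edgeR adjusted p of 0.174, and 0.026 with the block. SYVN1, a ubiquitin ligase of the endoplasmic reticulum, was at 8.83, 7.99 and 10.2 FPKM against 6.16, 6.91 and 7.75 FPKM, with an edgeR adjusted p of 0.216, and 0.0413 with the block. Their log2 fold changes were -0.39 and -0.35.

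Upstream of the proteasome, 0 of 16 genes of ubiquitin and its first conjugation steps were called without the block. With it, UBE2D2 was lower. UBE2D2, a conjugating enzyme, was at 28.5, 33.1 and 33.6 FPKM in siCtrl and 22.3, 23.2 and 25.6 FPKM in siNUF2 libraries, with a log2 fold change of -0.40 (edgeR adjusted p = 0.0911, and 0.0113 with the block). UBB and RPS27A, which encode ubiquitin, had log2 fold changes of -0.06 and 0.10.

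Among 11 shuttles and segregase factors, 0 rose and 1 fell. UBQLN2, a shuttle factor of the ubiquilin family, fell from 14.4, 13.6 and 14.9 FPKM to 9.76, 9.84 and 10.6 FPKM, with a log2 fold change of -0.48 (SE 0.093, edgeR adjusted p = 0.03). The groups were far apart beside their spread, while the call was lost without each library in turn, at adjusted p between 0.0595 and 0.127. UBQLN1 and UBQLN4, from the same family, had log2 fold changes of -0.05 and 0.03.

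Among 11 antigen processing genes, 1 fell and 0 rose. PDIA3, a disulfide isomerase of the peptide-loading complex, fell from 114, 110.5 and 137 FPKM to 60.7, 60.9 and 74.5 FPKM, with a log2 fold change of -0.86 (SE 0.13, edgeR adjusted p = 0.0117). It was called without each library except siNUF2 replicate 1, without which the adjusted p was 0.0611. With the block, CALR was also higher and IRF1 lower. CALR, a chaperone of that complex, was at 302, 207 and 294 FPKM in siCtrl and 364, 294 and 336 FPKM in siNUF2 libraries, with an edgeR adjusted p of 0.026 with the block and 0.321 without. IRF1, a factor that drives immunoproteasome genes, was at 2.96, 3.04 and 3.54 FPKM against 1.65, 2.22 and 2.87 FPKM, with an edgeR adjusted p of 0.0461 with the block and 0.271 without. TAP1, TAP2 and B2M had log2 fold changes of -0.16, 0.01 and -0.01.

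**Figure D4:**
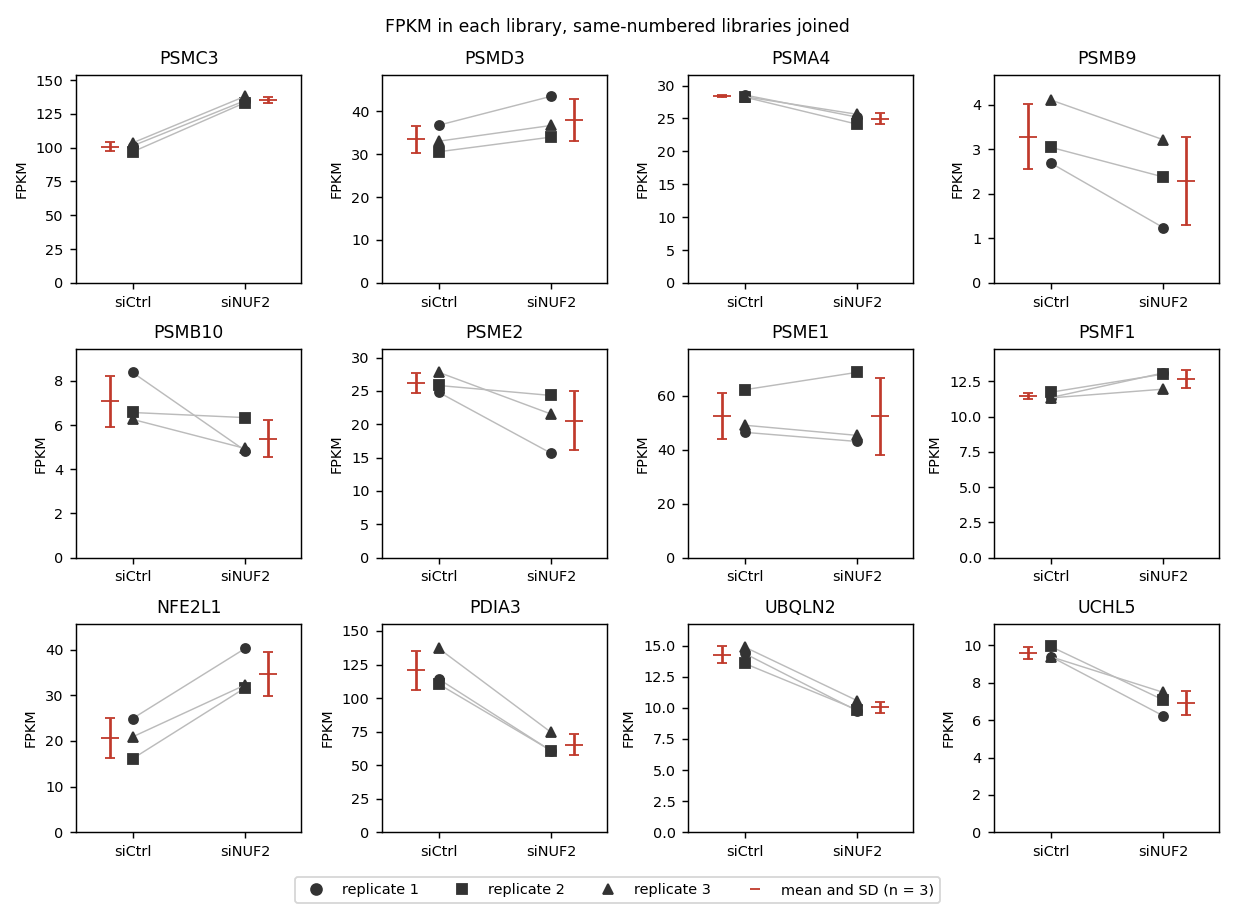
FPKM of 8 proteasome genes and 4 related genes in each library, on axes from 0, with same-numbered libraries joined and the mean and SD (n = 3) of each group in red. PSMC3, PSMF1 and NFE2L1 lie higher and PSMA4, PSME2, PDIA3, UBQLN2 and UCHL5 lower in every siNUF2 library than in any siCtrl library. The lines of PSMD3 run nearly parallel, and those of PSMB9, PSMB10 and PSME2 spread.

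Since NFE2L1 was among the genes that rose, the promoters of the members were searched for its element. RefSeq promoters (GRCh38.p14, 300 bases each) were matched by symbol for 40 of the 46 members, which leaves PSMA7, PSMB1, PSMB6, PSMB7, PSMD4 and PSMG3 without a sequence. The core letters TGACNNNGC, in which N is any base, were present on either strand in 13 of 40 (32.5%), against 13.6% of all 27305 promoters of the same length and 15.5% of those of genes tested. Of the 15 elements, 12 began before the annotated start. Examples are shown with the element in capitals and 20 bases on each side where the promoter window allows, written along the gene. In PSMB9, PSMD9 and PSME4 the capitals are the reverse complement of the searched letters.
PSMB3, chr17:38752617-38752665, plus strand: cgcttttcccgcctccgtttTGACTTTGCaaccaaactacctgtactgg
PSMD3, chr17:39980750-39980798, plus strand: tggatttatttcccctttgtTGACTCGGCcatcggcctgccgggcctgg
PSMD12, chr17:67366714-67366762, minus strand: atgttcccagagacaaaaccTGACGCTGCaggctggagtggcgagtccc
PSMB9, chr6:32854024-32854072, plus strand: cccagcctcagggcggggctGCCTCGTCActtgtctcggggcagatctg
PSMG1, chr21:39183606-39183654, minus strand: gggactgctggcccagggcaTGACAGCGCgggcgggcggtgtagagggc
PSMG2, chr18:12658679-12658727, plus strand: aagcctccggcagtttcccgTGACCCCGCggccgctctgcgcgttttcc
PSMD5, chr9:120843028-120843076, minus strand: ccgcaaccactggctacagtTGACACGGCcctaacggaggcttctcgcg
PSMD9, chr12:121888621-121888669, plus strand: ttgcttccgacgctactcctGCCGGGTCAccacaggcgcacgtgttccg
PSME4, chr2:53970999-53971047, minus strand: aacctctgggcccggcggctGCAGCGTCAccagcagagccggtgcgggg

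The values of members with and without these letters are given as a description, with no test. The median log2 fold change was 0.0184 in the 13 members with the element and 0.066 in the 27 without it. PSMC3, the gene that rose, has none in its window, and PSMD3, with the largest value among members that hold it, has 2. The element was most common among assembly factors, in 4 of 6, and activators, in 3 of 5, and was in 0 of 6 alpha ring promoters. The searched letters share their start with the AP-1 motif, and a match of letters does not show binding.

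The interferon-stimulated core GAAANNGAA was searched in the same way because PSMB9, PSMB10 and PSME2 had the lowest values of all members. It was present in 7 of 40 promoters (17.5%), against 8.29% of all promoters and 6.42% of those of genes tested. Those of PSMB10, PSME2 and PSMG4, which hold the same letters on the strand of the gene, are shown with the element in capitals.
PSMB10, chr16:67936843-67936891, minus strand: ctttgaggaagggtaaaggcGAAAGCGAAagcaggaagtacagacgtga
PSME2, chr14:24146610-24146658, minus strand: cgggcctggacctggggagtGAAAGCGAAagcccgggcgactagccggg
PSMG4, chr6:3258894-3258942, plus strand: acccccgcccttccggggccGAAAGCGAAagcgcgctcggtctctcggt

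The same 9 letters, GAAAGCGAA, stand in PSMB10, PSME2 and PSMG4, 21, 28 and 33 bases before the annotated start. Of the genes with these letters, PSMB10 and PSME2 had log2 fold changes of -0.37 and -0.33, and PSMG4 of 0.14. PSME1 holds these letters on the opposite strand, 7 bases after the start, and had a log2 fold change of 0.02. The other promoters with the core were those of PSMA4, PSMB4 and PSMC2, 240, 68 and 7 bases before the start. The log2 fold changes of these genes were -0.16, 0.07 and 0.07. PSMB8 and PSMB9 have none in these windows. Of the general elements, also searched on both strands, CCAAT was in 45% of member promoters, against 35.7% of all promoters and 37.5% of those of genes tested. GGGCGG was in 67.5%, against 44.6% of all promoters and 72% of those of genes tested, and TATAAA in 10%, against 12% of all and 5.33% of those of genes tested.

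**Figure D5:**
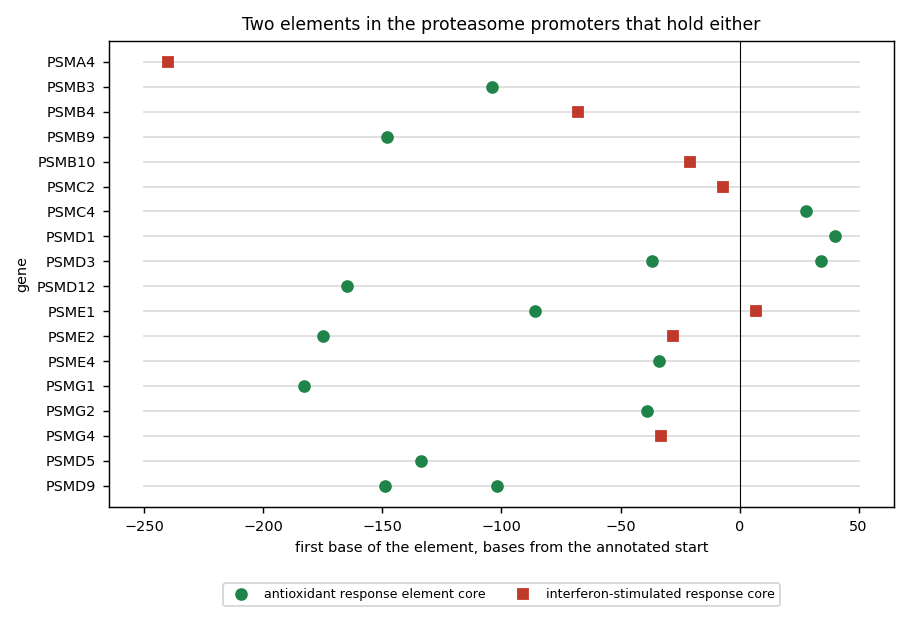
Position of the antioxidant response element core (circles) and of the interferon-stimulated core (squares) in the promoters of the 18 proteasome genes that hold either, from 250 bases before to 50 after the annotated start. The element cores are spread along the window. The squares of PSMB10, PSME2 and PSMG4 lie close together just before the start, and that of PSMC2 lies nearer to it.

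The 3′ UTRs of the members were searched for the letters that the NUF2 siRNA seed can pair with. TATGGAA was in 3 of 45 member 3′ UTRs (6.67%), against 16.1% of all 10174 tested genes with a 3′ UTR and 58.8% of the genes called lower. The median length was 459 nt in the members, 1504 nt in all genes and 2620 nt in the genes called lower. The sites are shown with the paired letters in capitals, in GRCh38 and written along the transcript.
PSMA5, chr1:109399333-109399359, minus strand: tgatagtagtTATGGAAaggaacaaat
PSMD5, chr9:120817132-120817158, minus strand: aaatgagtagTATGGAAtattaagatt
PSMD8, chr19:38382581-38382607, plus strand: gggaccaggcTATGGAAggtgaaattg

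The 3 genes with a site had log2 fold changes of 0.08, 0.14 and 0.15, and 0 of them were called. PSMC3, with a 3′ UTR of 66 nt, holds none. PSMA4, PSMB9 and PSMB10, which were among the 4 members with the lowest log2 fold changes, hold none either, and PSME2, the other of the 4, is the member for which no 3′ UTR of at least 50 nt was taken.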

How the data were processed

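RNA-seq of 8505C cells was analysed, with 3 siCtrl and 3 siNUF2 libraries. Per their methods and processing notes, the authors used fastp for quality control, HISAT2 for mapping to GRCh38 and StringTie for quantification. They deposited FPKM, which correct for the length of a transcript and the depth of a library, and whole-number counts per gene without normalization. The tool behind the counts, its strand setting and the annotation release are not given in the sources used here. No column of per-sample values was left out, and 0 rows lacked a gene name.

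Genes with a mean of at least 1 FPKM (11725 of 32985) were tested on the counts with edgeR 4.0.16 in R 4.3.3, after TMM normalization, by the quasi-likelihood test with Benjamini-Hochberg adjustment at 0.05. Standard errors are the log2 fold change over the square root of F. The members and gene lists were chosen with earlier results of these data known, and some genes of the lists are not reported here. Values in every library are given for members called in either fit, the highest and lowest member of each class, the catalytic subunits, activators and inhibitor, and related genes called in either fit. The code was tested on simulated data.

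The total count per library was 61257859 to 69755291, and the common dispersion of edgeR was 0.0452. The chi-square of replicate counts was 90.1 to 132 per degree of freedom, far beyond sampling noise, so none was a copy. Deviations from the group means correlated at 0.344 to 0.446 between same-numbered libraries and at -0.263 to -0.141 between others, so the numbers pair the libraries, and a fit with the number as a block was run. With 3 libraries against 3, an exact permutation test cannot give a p below 0.1. The alternatives were DESeq2 1.42.0 and its size factors, limma 3.58.1 and an F-test on log2(FPKM + 1), a pseudocount of 0.1, no filter, a filter at 5 FPKM, the block, and leaving out libraries. Promoters came from RefSeq, taking the first listed start of a gene, and 3′ UTRs from GENCODE release 44, taking the longest of at least 50 nt. Protein sequences were not used here.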

Additional observations from a re-analysis of the deposited data

How the results depend on the processing

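The number of proteasome genes called was 1 with edgeR, with the size factors of DESeq2, with DESeq2, with limma and the F-test on log2(FPKM + 1), with the FPKM minimum at 5 and with the replicate block. It was 0 with limma at a pseudocount of 0.1 and with no filter on FPKM, each with 1 member at an unadjusted p under 0.05, and 0 without both libraries numbered 1 (edgeR, 1 member at an unadjusted p under 0.05), a setting chosen after seeing the data. Without each library in turn it was 0 to 0, with 1 to 4 members at an unadjusted p under 0.05. PSMC3 kept its direction in all 15 settings, from 0.42 to 0.47, and 16 members with uncalled values changed sign in at least 1 setting.

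Of all genes, 468 were called by edgeR, 972 by DESeq2, 78 by the F-test, 188 with no filter, 1705 with the replicate block, 124 to 251 without each library in turn and 0 without both libraries numbered 1 (1223 at an unadjusted p under 0.05). Of the related genes, 3 were called by edgeR, 7 by DESeq2, 2 by limma, 0 by the F-test (10 at an unadjusted p under 0.05), 1 with the pseudocount of 0.1, 1 with no filter, 12 with the replicate block, 0 to 2 without each library in turn and 0 without both libraries numbered 1 (7 at an unadjusted p under 0.05). The block changed no call of a proteasome gene. The fit with no filter tests more genes, and the fits that leave out libraries hold fewer samples. The cause of the differences between settings was not tested.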

Other observations

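The deposited table also holds 17 pseudogenes of the members, found by symbol. Their sequences were not compared with those of the parent genes. Of these, 2 had a mean of at least 1 FPKM, PSMC1P1 at 4.23 FPKM, which is 10.8% of PSMC1, and PSMA6P1 at 2.88 FPKM, which is 8.83% of PSMA6. The 46 members lie on 17 chromosomes, with 7 each on chromosomes 14 and 17. For 15 members, another gene with a mean of at least 1 FPKM overlaps the gene.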
